A study of Mus musculus with 12 samples.

Results

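The chemokines of mouse liver described here were 9 genes, chosen by symbol from 6 deposited tables and led by Ccl9, which was picked because it stood higher in livers of mice given PCN. They were Ccl2, Ccl5, Ccl6, Ccl9, Cxcl1, Cxcl9, Cxcl10, Cxcl12 and Cxcl13, of 26031 gene identifiers with read counts. Counts were at hand for 8 of the 9, and Cxcl1 was not analysed here. Liver RNA came from C57BL/6N mice in 4 groups of 3 samples. The HFD PCN group ate a high-fat diet (HFD) and received PCN at 50 mg/kg, the HFD Vehicle group ate the same diet and received 30% DMSO in corn oil, the HFD group ate it with no treatment, and the Chow group ate regular chow with no treatment. The diet began when the mice were 6 weeks old and lasted 15 weeks, and PCN or vehicle was given intraperitoneally once a day for 4 days. PCN is a synthetic steroid known to activate the pregnane X receptor of rodents, a nuclear receptor that turns on genes of drug metabolism. The labels do not give the sex of the mice or the solvent of PCN, and nothing in them says whether the samples of a group were separate animals, so p-values measure the spread between these samples.

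Chemokines are small secreted proteins that direct the movement of leukocytes through receptors with G proteins, and they are named CC or CXC by the spacing of their first cysteines. In liver, Kupffer cells, sinusoidal endothelial cells, stellate cells and hepatocytes can all make them, many under the control of NF-kB or interferon signalling. Ccl9 and Ccl6 are CC chemokines described in rodents and act through the receptor Ccr1 on myeloid cells. Ccl2 attracts monocytes through Ccr2, and Ccl5 attracts T cells and other leukocytes. Cxcl9 and Cxcl10 are interferon-induced ligands of Cxcr3 on T and NK cells. Cxcl12 retains and guides cells that carry Cxcr4, and Cxcl13 guides B cells through Cxcr5.

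The 8 genes with counts lay in few places in the genome (build GRCm38, whole gene from first to last exon, all protein coding). Ccl9 (ENSMUSG00000019122) spans chr11:83572919-83578636 on the minus strand, and Ccl6 (ENSMUSG00000018927) is its neighbour at chr11:83587882-83593087 on the same strand, with 9245 bases between them. Ccl5 (ENSMUSG00000035042) lies at chr11:83525778-83530518 and Ccl2 (ENSMUSG00000035385) at chr11:82035571-82037453. Cxcl9 (ENSMUSG00000029417, chr5:92321347-92328079) and Cxcl10 (ENSMUSG00000034855, chr5:92346638-92348889) are 18558 bases apart, and Cxcl13 (ENSMUSG00000023078) lies at chr5:95956951-95961068. Cxcl12 (ENSMUSG00000061353) stands apart from these clusters at chr6:117168535-117181367.

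RefSeq promoters (GRCm38.p6) were matched for 7 of the 9 genes, and 4 are shown because they belong to the 2 pairs of close neighbours whose values are compared below. Each is the 250 bases before the gene's start, 5′ to 3′ on the gene's strand. In Ccl9 and Ccl6 the capitals mark runs of at least 12 bases that the pair shares, and in Cxcl9 and Cxcl10 they mark the NF-kB words listed below, on either strand.
Ccl9 (chr11:83578637-83578886, minus strand): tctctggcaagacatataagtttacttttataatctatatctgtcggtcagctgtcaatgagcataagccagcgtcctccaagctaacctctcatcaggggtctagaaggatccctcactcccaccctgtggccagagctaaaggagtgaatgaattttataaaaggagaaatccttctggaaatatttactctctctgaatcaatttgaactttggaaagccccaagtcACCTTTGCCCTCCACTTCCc
Ccl6 (chr11:83593088-83593337, minus strand): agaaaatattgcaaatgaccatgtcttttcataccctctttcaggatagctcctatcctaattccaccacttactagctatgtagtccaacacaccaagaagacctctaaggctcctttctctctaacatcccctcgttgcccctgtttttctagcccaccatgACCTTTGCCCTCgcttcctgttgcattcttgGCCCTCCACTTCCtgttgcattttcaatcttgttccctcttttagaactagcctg
Cxcl9 (chr5:92328080-92328329, minus strand): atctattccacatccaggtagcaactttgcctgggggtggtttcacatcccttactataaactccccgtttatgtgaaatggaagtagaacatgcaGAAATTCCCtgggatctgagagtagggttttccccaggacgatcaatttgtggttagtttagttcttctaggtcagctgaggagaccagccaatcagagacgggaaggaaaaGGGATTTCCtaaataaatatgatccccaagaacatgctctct
Cxcl10 (chr5:92348890-92349139, minus strand): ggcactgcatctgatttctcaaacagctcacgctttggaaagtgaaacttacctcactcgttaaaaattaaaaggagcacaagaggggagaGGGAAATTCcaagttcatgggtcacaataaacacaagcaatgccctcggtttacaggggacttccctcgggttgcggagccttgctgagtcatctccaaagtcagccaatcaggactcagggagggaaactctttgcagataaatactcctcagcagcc

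The run ACCTTTGCCCTC occurred in 4 of 32851 RefSeq promoters of this length and the run GCCCTCCACTTCC in 5. These 2 runs overlap in Ccl9, where they begin 20 and 14 bases before the start, and are separate in Ccl6, where they begin 86 and 55 bases before it. No other pair among the 7 promoters shared a run of 12 bases. The words searched for NF-kB, on both strands, were GGGATTTCC and the first 9 letters of longer NF-kB words, GGGAAATTC, GGGAATTTC and GGGACTTTC, and 0.974% of all promoters held at least 1 of these 4. Cxcl9 held GGGATTTCC beginning 42 bases before its start and GGGAATTTC on the opposite strand beginning 154 bases before it. Cxcl10 held GGGAAATTC beginning 159 bases before its start. Ccl9 and Ccl6 held none of the 4 words in this window. NF-kB sites take other forms too, which are neither marked nor counted here, so a promoter may hold more. The interferon-type word GAAANNGAA occurred once in Cxcl9, 175 bases before the start, and once in Cxcl10, 213 bases before it, and in 7.13% of all promoters. The word AGTTCA, 1 of the units that nuclear receptors bind, occurred once in Ccl9, 43 bases before the start, and once in Cxcl10, 148 bases before it, as in 11.8% of all promoters. The related word AGGTCA (in 14.02% of all promoters) occurred once each in Cxcl9, Cxcl13 and Ccl6, not in Ccl9. These matches describe letters in these windows and not binding.

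Values below are read counts divided by a library's size factor, called normalized counts, on 1 scale for the 12 libraries. A fold is a ratio of group means, with the SD over 3 samples. The table of vehicle against uninjected HFD gave counts for every gene, with 19773547 to 22039805 summed counts in vehicle libraries and 7466378 to 38161486 in HFD libraries. The other 5 tables held values for called genes alone (deposited adjusted p under 0.05), so a chemokine not listed there has no PCN or chow value here. The marker genes were those of liver: the sum of 6 hepatocyte markers such as Alb ran from 995792 to 1641120 in vehicle libraries and from 1295020 to 1747700 in HFD libraries. In bulk liver, fewer cells of a type and less RNA per cell cannot be told apart.

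**Figure D1:**
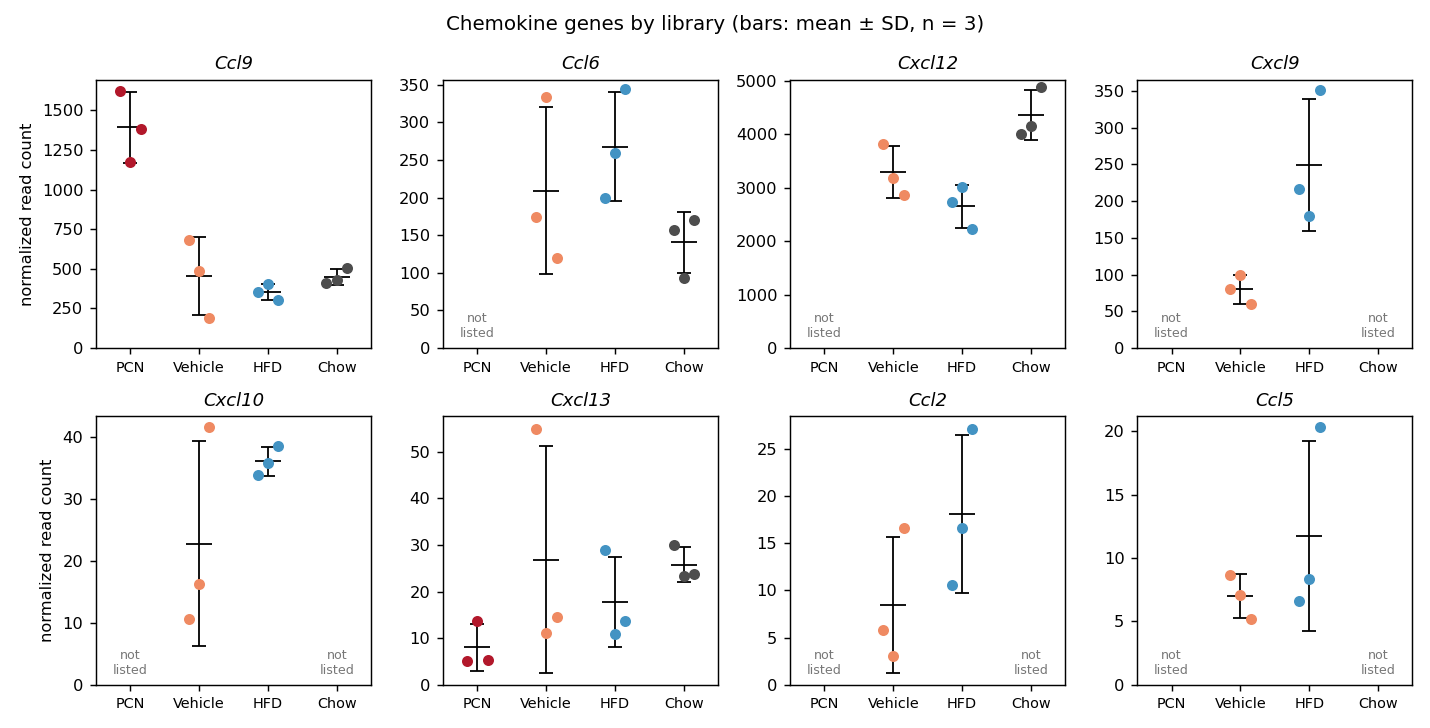
Normalized read counts (y axis, linear, own scale in each panel) of 8 chemokine genes in each library, by group on the x axis, with bars for mean and SD. Ccl9 counts in PCN livers lay between 1175 and 1622, above all 9 other libraries, and Cxcl9 counts in vehicle livers all lay below those in HFD livers. "Not listed" marks a group without counts for that gene in the tables used.

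Ccl9 was the chemokine by which the group was chosen, so its PCN values are a description without a test. Normalized counts of Ccl9 were 1622, 1175 and 1385 in PCN livers, against 680.3, 489.3 and 191.0 in vehicle livers. They were 353.8, 407.3 and 303.3 in uninjected HFD livers, and 413.2, 430.8 and 506.1 in chow livers. All 3 PCN libraries lay above all 9 others, with no overlap. Ccl9 averaged 1394 ± 224 in PCN livers, 454 ± 247 in vehicle livers, 355 ± 52.0 in HFD livers and 450.0 ± 49.4 in chow livers (SD, n = 3 each). The PCN mean was 3.07-fold the vehicle mean, 3.93-fold the HFD mean and 3.10-fold the chow mean, and these 3 ratios share the PCN libraries.

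The vehicle livers were the most uneven of the 4 groups for Ccl9, and the fold of PCN over vehicle followed them. It was 4.10 without vehicle replicate 15, the highest vehicle library, and 2.38 without vehicle replicate 55, the lowest. Against HFD the ratio stayed between 3.61 and 4.24 when any library was left out, and against chow between 2.84 and 3.34. In the authors' deposited table of PCN over vehicle, 1 of the 9 chemokines was called, Ccl9, where 1.71% of all genes were called. Ccl9 was also the 1 chemokine called in the authors' deposited table of PCN over HFD (3.15% of all genes called). In the authors' deposited table of PCN over chow, Ccl9 and Cxcl13 were called, 2 of the 9, where 8.1% of all genes were. With edgeR on the listed counts the numbers called were 0 of the 9 over vehicle, 1 over HFD and 1 over chow. This test could call only listed genes. It called 20 of 442 listed genes over vehicle (0.0773% of all genes), 147 of 809 over HFD (0.573%) and 813 of 2032 over chow (3.24%). Since higher counts in PCN livers are what chose Ccl9, its calls in these contrasts were fixed by the choice, and nothing is read from these counts or shares. Of 2996 words of 50 bases in Ccl9 exons, 59 also occur in other genes, so few reads could be shared.

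Markers of liver cells also differed in PCN livers. In the authors' deposited table of PCN over chow, 4 of 6 hepatocyte markers were lower and 0 higher, where 8.1% of all genes were called. The ratio of means was 0.465 for Alb. The 5 hepatocyte markers with counts in every group summed to 590876 to 1124770 in PCN livers and 906531 to 1533990 in vehicle livers. The sum was 1206000 to 1654860 in HFD livers and 1692240 to 1904300 in chow livers. A marker has PCN counts only where a PCN comparison called it, so this sum repeats those calls and is no further support. Of 13 macrophage markers 1 and of 7 stellate cell markers 2 were higher in that authors' deposited table, with 0 lower, and of 5 cholangiocyte markers 1 was higher and 1 lower. The PCN and chow groups differ in diet as well. On the same diet, the authors' deposited table of PCN over HFD (3.15% of all genes called) called the stellate marker Col1a1 lower (ratio of means 0.437). It also called the hepatocyte marker Ttr (0.539) and the endothelial marker Lyve1 (0.602) lower, and the hepatocyte marker Serpina1a higher (1.58). In the authors' deposited table of PCN over vehicle (1.71% of all genes called), 1 of 5 dendritic cell markers was called, Clec9a, which was lower (ratio of means 0.381). No marker of the other cell types was called there. The part of these cells in the Ccl9 and Cxcl13 values was not tested.

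Away from PCN, Ccl9 differed little between diets. Its HFD mean was 1.27-fold lower than the chow mean, and the 3 HFD libraries all lay below the 3 chow libraries, but the gene was not listed with values in the authors' deposited table of HFD over chow. The vehicle mean was 1.01-fold the chow mean, with overlapping libraries.

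Its neighbour Ccl6, the other Ccr1 ligand, had no PCN value, since none of the 3 PCN tables listed it. Normalized counts of Ccl6 were 174.4, 333.6 and 119.3 in vehicle livers. They were 199.4, 259.3 and 344.0 in HFD livers, against 157.2, 93.7 and 170.2 in chow livers. All HFD libraries lay above all chow libraries, while the vehicle libraries spread over both. Ccl6 averaged 268 ± 72.7 in HFD livers and 140 ± 40.9 in chow livers (SD, n = 3 each), a 1.91-fold difference. By the deposited call Ccl6 rose with HFD, while its neighbour Ccl9 was not listed and had a lower mean in HFD than in chow livers.

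Cxcl12, the ligand of Cxcr4 and Ackr3, went the other way with diet. Its normalized counts were 3819, 3189.8 and 2861 in vehicle livers. They were 2731, 3011 and 2223 in HFD livers, against 4017, 4165 and 4890 in chow livers. All HFD and all vehicle libraries lay below all chow libraries. Cxcl12 averaged 2655 ± 400 in HFD livers and 4357 ± 467 in chow livers (SD, n = 3 each), 1.64-fold lower in HFD. The vehicle mean of 3289.9 ± 487 was 1.32-fold lower than the chow mean, but the gene was not listed with values in the authors' deposited table of vehicle over chow.

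These were the 2 chemokines called between diets, of 9, where 4.85% of all genes were called in the authors' deposited table of HFD over chow (DESeq2). Its adjusted p was 0.0281 for Ccl6 and 0.000472 for Cxcl12. Neither call held when the listed counts were tested with edgeR's quasi-likelihood test, which gave an adjusted p of 0.250 for Ccl6 and 0.112 for Cxcl12. This test could call only the 1226 listed genes and called 113 of them, which is 0.447% of all genes. When any library was left out, the HFD over chow ratio was 1.63 to 2.15 for Ccl6 and 0.568 to 0.659 for Cxcl12. In the authors' deposited table of vehicle over chow 0 of the 9 chemokines were called, where 3.1% of all genes were, and edgeR on the listed counts called 0 of the 9 and 0.388% of all genes.

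Markers of other liver cells moved beside these chemokines. In the authors' deposited table of HFD over chow, 7 of 13 macrophage and Kupffer cell markers were higher and 0 lower, where 4.85% of all genes were called. The 8 macrophage markers with counts in both groups summed to 6071 to 9964 in HFD livers and 3751 to 5060 in chow livers. Of 7 stellate cell markers 3 were higher in the authors' deposited table, and those 3 summed to 2253 to 3558 in HFD livers and 472 to 646 in chow livers. Of 6 endothelial markers, Lyve1 was higher and Kdr lower in the authors' deposited table, and the pair summed to 1865 to 2054 in HFD livers and 1730 to 2032 in chow livers. Of 6 hepatocyte markers 3 were lower and 0 higher in the authors' deposited table, and the 6 summed to 1295020 to 1747700 in HFD livers and 1818760 to 2024570 in chow livers, without overlap. Most of this sum in HFD livers was Alb (mean 1237050), which was not among the 3 called, Apoa1, Serpina1a and Hnf4a. A marker has chow counts only where a comparison with chow called it, so these sums follow from such calls and are no further support. None of the macrophage or stellate markers was at 0 in the HFD libraries. Their part in the Ccl6 and Cxcl12 values was not tested.

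Cxcl13, the B cell chemokine, was counted in all 12 libraries at low levels. Normalized counts were 5.01, 13.7 and 5.30 in PCN livers, from 9, 8 and 5 raw reads, against 54.9, 11.1 and 14.5 in vehicle livers. They were 28.8, 10.8 and 13.6 in HFD livers, and 30.0, 23.4 and 23.7 in chow livers. The PCN libraries did not overlap the chow libraries, but they overlapped those of the vehicle and HFD groups. The PCN mean of 8.02 ± 4.96 was 3.21-fold lower than the chow mean of 25.7 ± 3.74 (SD, n = 3 each). The authors' deposited DESeq2 adjusted p for PCN over chow was 0.0172. With edgeR on the listed counts the adjusted p was 0.0847, so the call did not hold. The PCN over chow ratio of 0.312 became 0.201 without PCN replicate 11. Vehicle replicate 15, with 54.9, held the highest value of all 12 libraries.

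**Figure D2:**
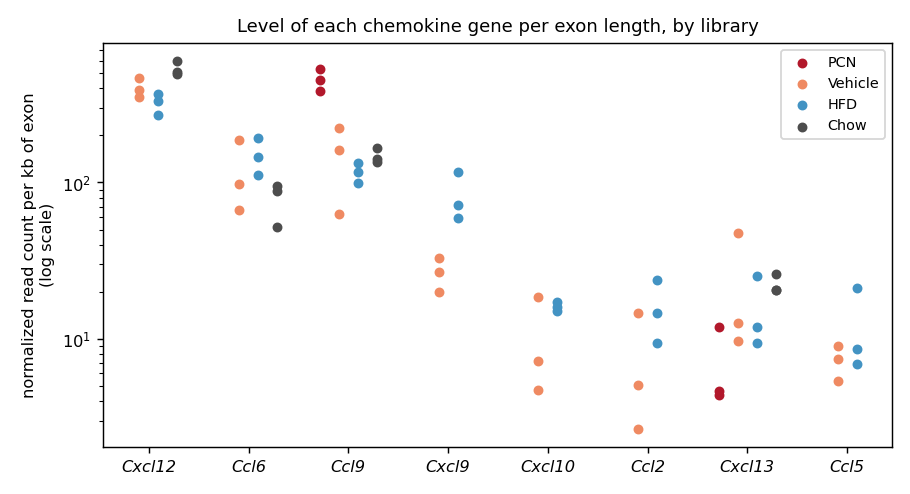
Normalized read counts per kilobase of exon (y axis, log scale) of 8 chemokine genes in each library, with genes on the x axis in the order of their HFD mean and 1 point per library coloured by group. Cxcl12 was highest in vehicle, HFD and chow livers, and the PCN points of Ccl9 lay between 386 and 533.

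Levels can be set beside each other only per exon length. Per kilobase of exon, Cxcl12 had the highest mean level among the chemokines with counts in vehicle, HFD and chow livers, at 402, 325 and 533 normalized counts. Ccl9 had a mean level of 458 per kilobase in PCN livers, where Cxcl12 has no value, and of 149, 117 and 148 in vehicle, HFD and chow livers. Ccl6 had 117, 149 and 78.2 per kilobase in vehicle, HFD and chow livers, and its libraries overlapped those of Ccl9 in the vehicle and HFD groups but not in chow. Cxcl9 had 26.5 per kilobase in vehicle livers and 82.6 in HFD livers. Cxcl10, Ccl2, Cxcl13 and Ccl5 had mean levels between 7.27 and 23.4 in these 2 groups, with Ccl5 lowest in both. By mean level the order was Cxcl9, Cxcl13, Cxcl10, Ccl2 and Ccl5 in vehicle livers, and Cxcl10, Ccl2, Cxcl13 and Ccl5 in HFD livers. Libraries of genes next to each other in these orders overlapped.

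Vehicle injection could be compared with no injection for every gene, and here the interferon-induced Cxcl9 stood out. Normalized counts of Cxcl9 were 80.9, 99.1 and 60.2 in vehicle livers, against 217, 180 and 351 in HFD livers. Each vehicle library lay below each HFD library, and the mean was 80.1 ± 19.5 in vehicle livers and 249 ± 90.0 in HFD livers (SD, n = 3 each), 3.11-fold lower with vehicle. edgeR's quasi-likelihood test gave a log2 change of -1.62 (SE 0.30), an unadjusted p of 0.000614, which ranked 51 among 13775 genes, and an adjusted p of 0.162. By this test Cxcl9 was not called. It was called by DESeq2 on the same counts (adjusted p = 8.96e-05), by edgeR without an expression filter (adjusted p = 0.000216) and in the authors' deposited table (log2 change -1.3, adjusted p = 0.000225).

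The filter and the tool set how many genes were called at all in this comparison. edgeR called 1 gene of 13775 with its expression filter (0.00726%), and 216 genes without it (0.83%). DESeq2 called 268 genes (2%), and the authors' deposited table called 206 (0.792%). Leaving out 1 library at a time kept the Cxcl9 log2 change between -1.82 and -1.30, with an edgeR adjusted p of 0.111 to 0.527.

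**Figure D3:**
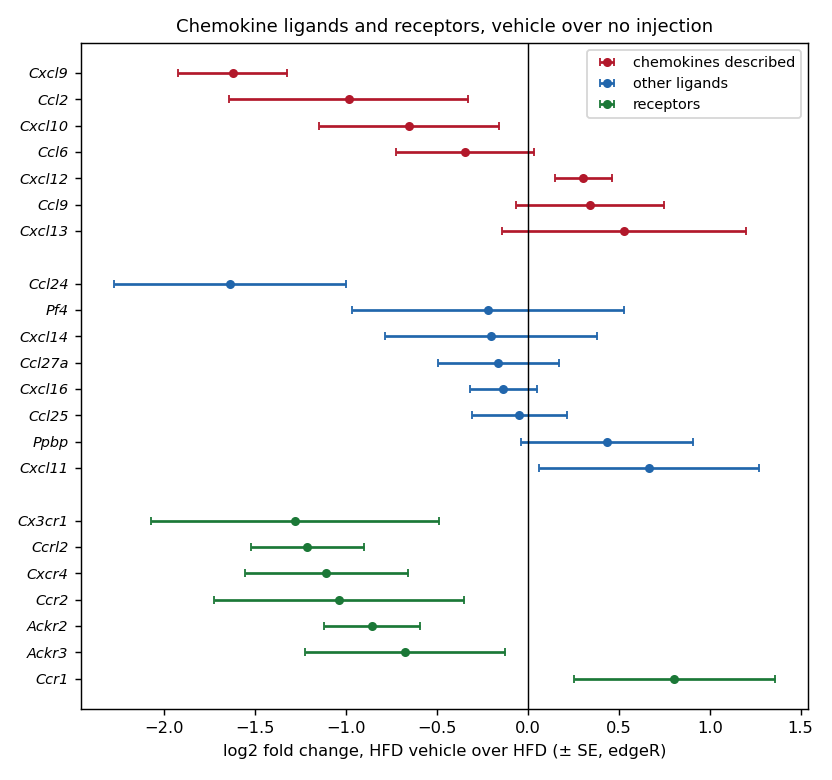
Log2 fold change of HFD vehicle over HFD with its standard error (x axis, edgeR) for each tested chemokine and other chemokine ligand and for 7 of the tested receptors (y axis). Cxcl9 lay lowest of the 7 chemokines described, at -1.62, and of the receptors drawn Ccr1 alone lay above 0.

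Cxcl10, the neighbouring Cxcr3 ligand, did not show the same separation. Its normalized counts were 10.6, 16.2 and 41.5 in vehicle livers, against 33.9, 35.7 and 38.5 in HFD livers. The HFD libraries were close together, and vehicle replicate 55 lay above all of them. The log2 change was -0.65 (SE 0.50) with an edgeR adjusted p of 0.595, and it was -1.42 without vehicle replicate 55. Cxcl10 shares 84 of 2343 exon words with the overlapping gene Art3, which had 152 raw reads over these 6 libraries, so its counts are uncertain to that extent.

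The monocyte and T cell chemokines were counted at low depth. Ccl2 had 5.78, 3.03 and 16.6 normalized counts in vehicle livers, against 10.6, 16.6 and 27.2 in HFD livers, which overlapped. Its log2 change was -0.99 (SE 0.66) with an edgeR adjusted p of 0.553, and without vehicle replicate 55 it was -1.88. Ccl5 had 8.67, 7.08 and 5.19 in vehicle livers, against 6.58, 8.31 and 20.4 in HFD livers, from 5 to 13 raw reads a library, and fell below the expression filter. Its ratio of means of 0.594 became 0.937 without HFD replicate 38.

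Over the chemokines with a test between vehicle and HFD, 3 were higher and 4 lower, with a median log2 change of -0.35 against 0.02 over all 13775 genes. edgeR called 0 of the 7 (0.00726% of all genes). At an unadjusted p under 0.05 there was 1 of 7, where 12.5% of all genes passed. Ccl9 had a log2 change of 0.34 (SE 0.40), Ccl6 of -0.35 (SE 0.38), Cxcl12 of 0.31 (SE 0.16) and Cxcl13 of 0.53 (SE 0.67), with edgeR adjusted p-values of 0.742, 0.720, 0.470 and 0.758. The direction of Ccl9 and of Cxcl13 rested on vehicle replicate 15, without which their log2 changes were -0.074 and -0.53.

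Cell markers in the same 6 libraries differed as follows, where edgeR called 0.00726% of all genes. The sum of 13 macrophage markers was 7250 to 10867 in vehicle livers and 10133 to 16113 in HFD livers, with 12 of 13 lower in vehicle, a median log2 change of -0.42 and 0 called by edgeR. The sum of 10 T and NK cell markers, the cells that carry Cxcr3, was 20.8 to 48.2 in vehicle livers and 29.9 to 45.3 in HFD livers. The sum of 5 B cell markers was 64.3 to 85.8 in vehicle livers and 89.6 to 337 in HFD livers, and that of 6 endothelial markers was 3858 to 5802 in vehicle livers and 6060 to 6660 in HFD livers. Of these 6 endothelial markers 4 were lower and 2 higher in vehicle, with 0 called by edgeR. The authors' deposited table called 2 of them lower, where 0.792% of all genes were called. The sum of 7 stellate cell markers was 5383 to 9005 in vehicle livers and 9437 to 12055 in HFD livers, without overlap. Of these stellate markers 7 of 7 were lower in vehicle, with a median log2 change of -0.50 and 0 called by edgeR. At an unadjusted p under 0.05 there were 2 of 7, where 12.5% of all genes passed. HFD replicate 38, the shallowest of these 6 libraries, had the highest macrophage sum and the highest Cxcl9, Ccl2, Ccl5 and Ccl6 counts. The part of these cells in the chemokine values was not tested.

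Other genes of the chemokine family are given beside the shares over all genes. Of 28 other chemokine ligands 8 were tested between vehicle and HFD, 2 higher and 6 lower, with a median log2 change of -0.15. edgeR called 0 of the 8 (0.00726% of all genes). At an unadjusted p under 0.05 there was 1 of 8, where 12.5% of all genes passed. This was Ccl24, an eosinophil chemokine, at 8.75 ± 6.54 in vehicle livers and 29.2 ± 16.6 in HFD livers (log2 change -1.64, SE 0.64, edgeR adjusted p = 0.369). It was chosen for naming after its value was seen. None of the 28 was called in the authors' deposited tables of the 6 comparisons, where 0.792% to 8.1% of all genes were called.

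Of 23 receptors 8 were tested, 1 higher and 7 lower with vehicle, with a median log2 change of -0.95, 0 called by edgeR (0.00726% of all genes) and 3 with an unadjusted p under 0.05 (12.5% of all genes). Ccrl2, an atypical receptor that binds chemerin, had 31.1 ± 7.50 normalized counts in vehicle livers and 70.9 ± 21.0 in HFD livers (SD, n = 3 each; log2 change -1.21, SE 0.31, edgeR adjusted p = 0.234). In the authors' deposited table of vehicle over chow it was called lower, with a ratio of means of 0.337. Cxcr4, the Cxcl12 receptor, had 23.8 ± 9.17 in vehicle livers and 53.1 ± 26.8 in HFD livers (log2 change -1.11, SE 0.45, edgeR adjusted p = 0.377). The authors' deposited table of PCN over HFD called it lower, with a ratio of 0.316. The scavenging receptor Ackr2 was the third, at a log2 change of -0.86 (SE 0.27, edgeR adjusted p = 0.293). Ccr1, the receptor of Ccl9 and Ccl6, had 12.8 ± 7.82 in vehicle livers and 7.64 ± 1.84 in HFD livers, and was not called in any comparison.

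Among 23 genes of NF-kB and interferon signalling that can induce chemokines, 20 were tested between vehicle and HFD, 10 higher and 10 lower. edgeR called 0 of the 20 (0.00726% of all genes). The interleukin-1 receptor Il1r1 was 3893 ± 1132 in vehicle livers and 1862 ± 651 in HFD livers, called higher in the authors' deposited table, with an edgeR adjusted p of 0.249. Il1r1 was also called in the authors' deposited tables of PCN over vehicle, where the ratio of means was 0.408, and of vehicle over chow, where it was 2.26. Tlr2, a receptor for bacterial lipoproteins, was called higher in the authors' deposited table of PCN over chow, with a ratio of 2.45. Tnfrsf1a, a receptor of tumour necrosis factor, was called higher in that table too, and in the authors' deposited table of HFD over chow, with a ratio of 1.38 there.

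The genes whose log2 counts followed Ccl9 most closely over the 12 libraries were 5 genes of other families. Among 1959 genes with counts in every library and a mean of at least 50, Pearson's r was 0.96 for Ugt1a1, which conjugates bilirubin, 0.95 for Akr1c14, a steroid dehydrogenase, and 0.95 for Ugt2b35, a glucuronosyltransferase. It was 0.94 for Tmem205, a membrane protein, and 0.94 for Rps26, a ribosomal protein. Of the 1959 genes, 170 (8.68%) had an r over 0.8. The libraries share groups and depth, and most genes with counts in every library were listed because a PCN or diet table called them. Ccl9 was chosen for its high PCN counts, so high PCN counts in the genes most like it follow from that choice. For these reasons r is given as a description. Ugt1a1 was 2.16-fold higher in PCN than in vehicle livers, Akr1c14 1.95-fold, Ugt2b35 2.76-fold, Tmem205 1.59-fold and Rps26 1.80-fold, each less than the 3.07-fold of Ccl9.

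**Figure D4:**
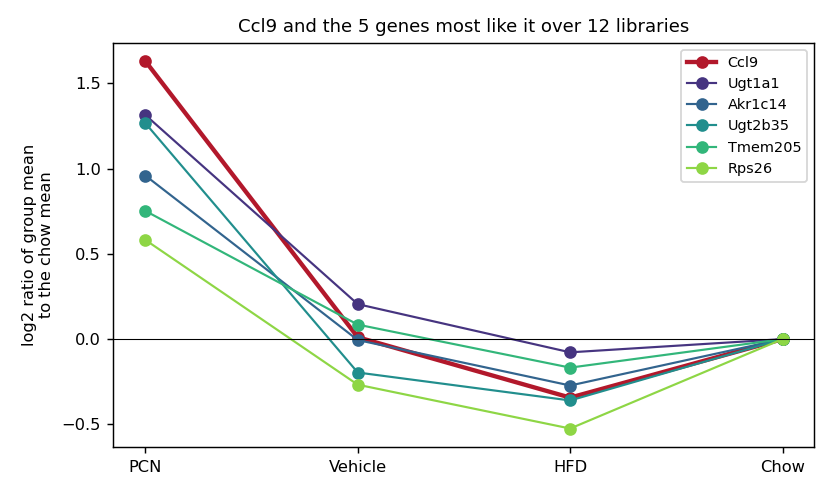
Log2 ratio of each group mean to the chow mean (y axis) for Ccl9 and the 5 genes most like it over 12 libraries, with the 4 groups on the x axis and 1 line per gene. All 6 lines are highest in PCN livers, which follows from how the genes were chosen, and Ccl9 has the highest PCN point, at 1.63.

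How closely chemokines of the same chromosomal cluster followed each other in the 6 complete libraries varied from pair to pair, as far as 6 points of 2 groups can describe it. Pearson's r of log2 counts was 0.35 between Ccl9 and Ccl6, 0.65 between Ccl5 and Ccl6, 0.10 between Ccl5 and Ccl9 and 0.44 between Cxcl9 and Cxcl10. It was -0.87 between Ccl9 and Cxcl10, which lie on different chromosomes, and 0.67 between Ccl6 and Cxcl9, also on different chromosomes. These values share libraries and depth and carry no test.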

How the data were processed

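Liver RNA of 12 samples was sequenced, 3 in each of 4 groups, and grouped by the sample titles. Per the submitters' processing notes, HISAT2, HTSeq, DESeq2 and the build GRCm38/mm10 were used, whose versions and roles are not given in the sources used here. Per the file headers, the authors' 6 deposited tables hold raw read counts per gene beside log2 fold changes, p-values and adjusted p-values. The table of vehicle against HFD was complete. From the counts and the deposited means the size factors were solved for and put on 1 scale (largest difference 0.52%). Where 2 tables gave a count for the same library they were equal (15768 values compared, 0 differed).

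The members and gene lists were chosen with earlier results of these data known. All 9 members are named, with every pathway gene called in a comparison and the 5 genes most like Ccl9 by Pearson's r of log2(normalized count + 1). For the complete table the test was edgeR 4.0.16 quasi-likelihood (TMM, expression filter, robust), adjusted by Benjamini-Hochberg over 13775 genes, with a standard error of |log2 change| over the square root of F. For the truncated tables the authors' deposited calls at an adjusted p under 0.05 were used, with edgeR on the listed counts (dispersion prior of the complete table) and DESeq2 1.42.0 on the complete table as alternatives. The edgeR steps were tested on simulated data. Other alternatives were another scaling, no filter and leaving out each library. Tests were two-sided. The promoter words were shortened after longer forms had been searched. For 3 samples against 3 the smallest exact permutation p is 0.10. Counts of Cxcl1 and of genes missing from a table were not analysed here. Some genes of the lists are counted but not reported by name here. The labels name no molecular identifiers, so reads may not be independent molecules.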

Additional observations from a re-analysis of the deposited data

How the results depend on the processing

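The count of chemokines called between vehicle and uninjected HFD was 0 with edgeR and 1 without the expression filter, with DESeq2 and in the authors' deposited table. It was 0 under the other scaling and 0 to 0 when any library was left out. The gene was Cxcl9 each time, and the cause of the difference between tools was not tested. edgeR on the listed counts changed the number called from the authors' deposited tables to 0 for PCN over vehicle (1 deposited), 1 for PCN over chow (2 deposited) and 0 for HFD over chow (2 deposited). It left 1 for PCN over HFD. For vehicle over chow it could test no chemokine, since none was listed with values. Without vehicle replicate 15 the vehicle over HFD log2 changes of Ccl9 (-0.0736) and Cxcl13 (-0.53) turned negative, within ranges of -0.0736 to 0.70 and -0.53 to 1.15 over all left-out libraries. Of the alternative values of single genes that had an adjusted p, 67 kept their direction and side of the threshold, 3 passed it, 4 no longer passed it and 2 turned round. Another 36, ratios with 1 library left out, had no test and kept their direction. No paired analysis was possible because the groups share no replicate number. Depth limits Ccl2, Ccl5 and Cxcl13 most, and HFD replicate 38 had the fewest counts.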

Other observations

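Vehicle replicate 55 held the lowest Ccl9, Ccl6, Cxcl9 and Cxcl12 counts of the 3 vehicle livers and the highest Ccl2 and Cxcl10 counts. Its Ccl9 count of 191.0 was the lowest of all 12 libraries. The sum of 7 neutrophil markers was 299 in this library and 84.9 to 162 in the other vehicle livers, against 110 to 188 in HFD livers. Cxcl11, which lies beside Cxcl10 and is annotated as a polymorphic pseudogene, reached 109 normalized counts as the highest vehicle value and 22.2 as the lowest, against 27.4 to 43.0 in HFD livers. The next ligand genes of the Ccl9 cluster, Ccl3 and Ccl4, had 5 and 3 raw reads over the 3 vehicle livers and 3 and 10 over the 3 HFD livers.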
